A study of Mus musculus with 8 samples.

Results

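The transcription factor NRF2 and 9 of its best known antioxidant target genes were followed in the ileum of KKAy mice given voglibose or water. The 10 genes were taken by symbol from the array's annotation: Nfe2l2, which encodes NRF2, and Slc7a11, Gclc, Gclm, Gpx2, Txnrd1, Srxn1, Nqo1, Hmox1 and Osgin1. All 10 were measured, by 1 probe set each, out of 19505 named genes on the array.

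The treated mice were 4 male KKAy mice that received voglibose at 1 mg/kg through a stomach tube once a day for 8 weeks, and 4 male KKAy mice that received an equal volume of water served for comparison. KKAy mice carry the yellow agouti allele and are used as a model of obesity with type 2 diabetes, and voglibose blocks the enzymes of the brush border that split starch and sucrose into glucose. Both groups were 14 weeks old per the labels and ate a diet with 45% of its energy as fat, for 4 weeks before treatment. No group without the agouti allele, on another diet or of another strain was analysed here, so the values describe treatment within obese animals on a fatty diet. Each mouse gave 1 piece of ileum of about 4 cm and 1 Affymetrix array, whose values are log2 signals, so that a difference of 1 is a 2-fold change.

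NRF2 is held in the cytoplasm by KEAP1, an adaptor of the CUL3 ubiquitin ligase, and is degraded there under resting conditions. Oxidants and electrophiles modify KEAP1, NRF2 then accumulates, enters the nucleus and binds with small MAF proteins to antioxidant response elements in its target genes, where BACH1 competes as a repressor. Since this control acts mainly on the protein, the mRNA of Nfe2l2 is not a measure of NRF2 activity, and the mRNAs of its targets are the usual readout. In the intestine the pathway is known for protection of the epithelium against dietary electrophiles and against peroxides.

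The arrays were alike in their overall signal, but the samples differed in regional markers. Array medians lay between 5.89 and 5.94, lower quartiles between 4.05 and 4.18 and upper quartiles between 9.04 and 9.22. The 6 markers of the ileal region (Fabp6, Slc10a2, Slc51a, Slc51b, Fgf15 and Nr1h4) had a mean of 10.29, 9.01, 11.76 and 11.84 in voglibose mice 1 to 4, against 10.67, 14.94, 12.60 and 9.15 in water mice 1 to 4. Fabp6, the bile acid binding protein of the distal ileum, was 3.54 in voglibose mouse 2 and 4.01 in water mouse 4, under the lower quartile of every array, and 17.50 in water mouse 2. By Fabp6 alone, 2 of the 8 mice thus did not match the labelled tissue. In voglibose mouse 2 and water mouse 4 Slc10a2 (6.12 and 5.69), Slc51a (12.87 and 13.01) and Nr1h4 (10.99 and 11.15) were also lowest. Slc51a, Nr1h4 and Slc51b (15.31 and 15.93) were still above the upper quartile of every array. Voglibose mouse 1 was lower than both in Slc51b (15.21) and in Fgf15 (4.92, against 5.22 and 5.10). The remaining samples were not alike in Fabp6 either. It was 8.14, 10.78 and 11.68 in voglibose mice 1, 3 and 4, and 8.51 and 14.11 in water mice 1 and 3. Voglibose mouse 2 also held pancreatic transcripts, with Amy2a5 at 14.09 and Cpa1 at 12.01, where the other 7 mice had 4.41 to 5.32 and 4.72 to 5.37. Results for the 10 genes are therefore given with and without voglibose mouse 2 and water mouse 4. In the other marker lists the brightest genes were Apoa1 (enterocytes), Mki67 (crypts), Lyz1 (Paneth cells), Zg16 (goblet cells), Dclk1 (tuft cells), Gcg (enteroendocrine cells), Lyz2 (macrophages), Jchain (lymphocytes), Slc4a1 (erythrocytes), Acta2 (smooth muscle), Dcn (fibroblasts), Serpina1a (liver) and Fabp4 (fat), and Slc51b and Cela2a in the ileal and pancreatic lists.

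The 10 genes had lower mean signal in voglibose mice than in water mice in 10 of 10 cases, by 0.04 to 0.59, and none of these differences passed the test. Of the 10 genes, 0 were called at an adjusted p under 0.05 (limma, Benjamini-Hochberg over 22206 probe sets), as were 0.0% of all probe sets, and their adjusted p ran from 0.701 to 0.986. At an unadjusted p under 0.05 there were also 0 of 10, where 7.52% of all probe sets passed (3.08% higher and 4.44% lower), and in 0 of 10 did the groups not overlap, against 4.35% of all probe sets. A difference below 0 was itself common, found in 50.9% of all probe sets and in 56.8% of those above the median signal. The median difference was -0.12 over the 10 genes, -0.005 over all probe sets and -0.043 over the brighter ones, and after a further quantile normalization 9 of 10 were lower, with a median of -0.11, beside 48.9% of all probe sets. The 95% intervals of all 10 included 0, and taken singly the highest upper bound, that of Nfe2l2, was a 1.41-fold higher signal. In tissue samples such as these, fewer cells of a type and less RNA per cell cannot be told apart.

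**Figure D1:**
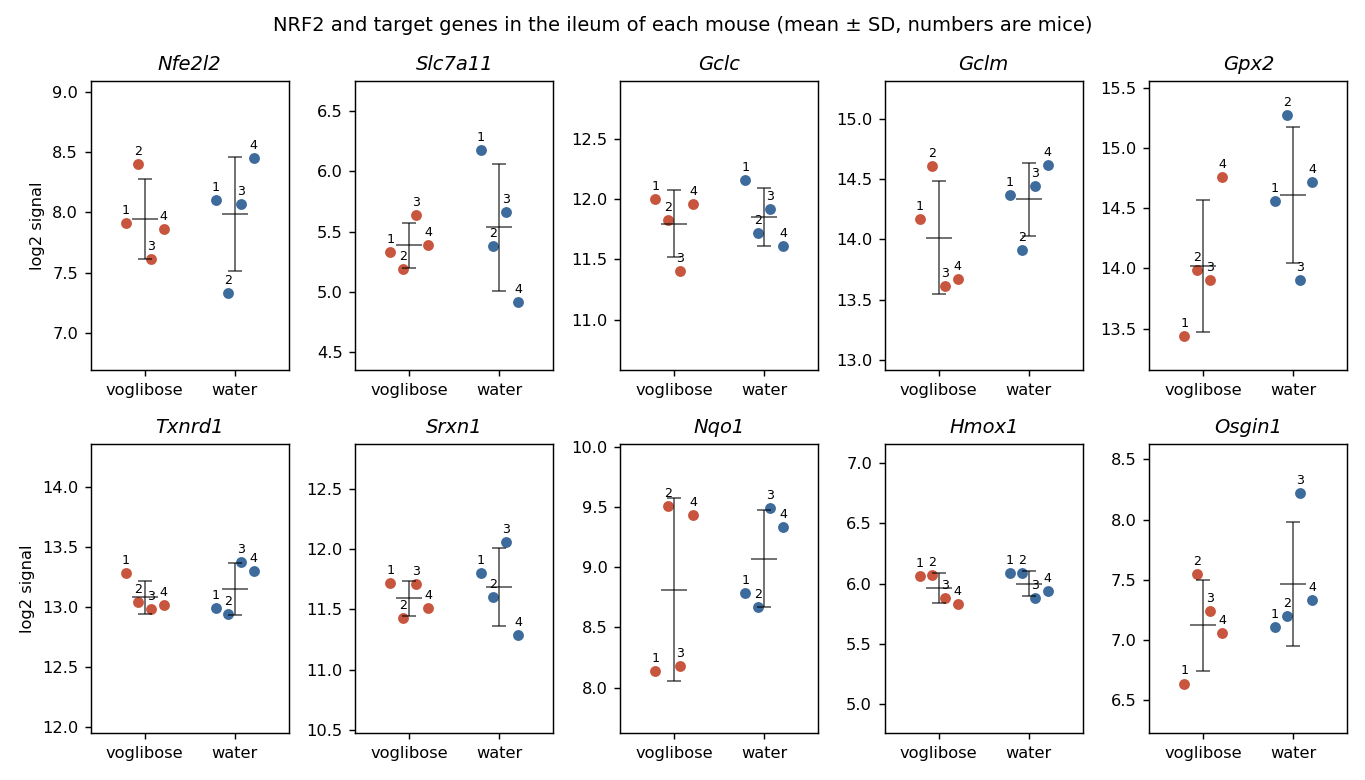
Log2 signal of NRF2 (Nfe2l2) and 9 target genes in each voglibose mouse (left) and water mouse (right). Points are single mice with their numbers, bars are the mean ± SD of 4 mice, and every panel spans the same range of log2 units. The groups overlap in each of the 10 panels.

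Nfe2l2 had 7.91, 8.40, 7.61 and 7.86 in voglibose mice 1 to 4, against 8.10, 7.33, 8.07 and 8.45 in water mice 1 to 4. The highest and the lowest value both came from the water group, and the groups overlapped over most of their range. The difference was -0.04 ± 0.24 (SE, n = 4 each; 95% interval -0.58 to 0.49; limma, adjusted p = 0.986). It had no stable direction: it was 0.11 without water mouse 4, 0.069 without voglibose mouse 3 and 0.03 after a further quantile normalization, and -0.26 without water mouse 2. All 8 arrays had Nfe2l2 above their median signal.

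Synthesis of glutathione, the main small thiol of the cell, needs cystine uptake and then glutamate cysteine ligase. Slc7a11, which encodes the cystine and glutamate exchanger, had 5.33, 5.19, 5.64 and 5.39 in voglibose mice, against 6.18, 5.38, 5.66 and 4.92 in water mice. Its signal was dim, above the array median in 1 of 8 arrays, so a change in it would be understated. The SD was 0.19 in voglibose mice and 0.53 in water mice, where mouse 1 (6.18) and mouse 4 (4.92) lay at the ends. This difference in spread was not tested. The difference was -0.15 ± 0.24 (SE; limma, adjusted p = 0.919), with 0.068 when water mouse 1 was left out and -0.35 when water mouse 4 was.

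Gclc, the catalytic subunit of glutamate cysteine ligase, had 12.00, 11.83, 11.40 and 11.96 in voglibose mice, against 12.16, 11.72, 11.92 and 11.61 in water mice. These are bright signals, above the upper quartile in all 8 arrays, and nearly the same in both groups, with a difference of -0.06 ± 0.18 (SE; 95% interval -0.45 to 0.34; limma, adjusted p = 0.967). The sign turned without voglibose mouse 3 (0.078) or without water mouse 1 (0.048).

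Gclm, the modifier subunit that raises the efficiency of the same enzyme, had 14.17, 14.61, 13.61 and 13.67 in voglibose mice, against 14.37, 13.91, 14.44 and 14.62 in water mice. Voglibose mice 3 and 4 were the lowest of the 8, while voglibose mouse 2 stood beside the highest water mouse. The difference was -0.32 ± 0.24 (SE; 95% interval -0.84 to 0.20; limma, adjusted p = 0.796). Without voglibose mouse 2, the mouse with pancreatic transcripts, it was -0.52 at an unadjusted p of 0.0347 and a limma adjusted p of 0.639, and without voglibose mouse 3 it was -0.19.

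Gclm and Nfe2l2 were the pair of members that varied most alike from mouse to mouse. Over the 8 mice Pearson's r was 0.83 (exact permutation p = 0.0111) and Spearman's rho 0.90 (exact permutation p = 0.00456). Adjusted over the 45 pairs of members these p-values were 0.498 and 0.205 (Benjamini-Hochberg, exact permutation), so the relation failed the correction. The relation was not that of the groups, since r of the deviations from the group means was 0.89, and it was 0.91 without the mice farthest from the median of Nfe2l2, water mice 2 and 4. Among the other pairs, Srxn1 and Slc7a11 had r = 0.73 (exact permutation p = 0.0419, adjusted p = 0.881), rho = 0.81 (exact permutation p = 0.0218, adjusted p = 0.490) and r = 0.76 without water mice 3 and 4. Of the 45 pairs, 26 had r above 0, the median r was 0.10, 2 had an unadjusted p under 0.05 and 0 passed after adjustment.

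Nfe2l2 also ran against the ileal region markers. Its highest signals were 8.40 in voglibose mouse 2 and 8.45 in water mouse 4, where the mean of the 6 markers was lowest, and it was lowest in water mouse 2 (7.33), which had the highest. Over the 8 mice r was -0.87 (exact permutation p = 0.00578) and rho -0.76 (exact permutation p = 0.0368), with adjusted p = 0.0578 and 0.368 over the 10 genes (Benjamini-Hochberg, exact permutation). Without voglibose mouse 2 and water mouse 2, farthest from the median of the markers, r was -0.63, so part of the relation rests on these mice. For Gclm r was -0.58 (exact permutation p = 0.128, adjusted p = 0.639), rho -0.57 (exact permutation p = 0.151) and r -0.50 without the same mice, with -0.83 for deviations from the group means. This relation was looked at after the values were seen. None of the 10 genes passed after adjustment, and 6 of 10 had r below 0. The samples differed in smooth muscle as well. The mean of 6 smooth muscle markers was 12.40, 12.34, 13.43 and 12.85 in voglibose mice 1 to 4, against 12.75, 14.36, 12.34 and 11.11 in water mice 1 to 4. Like the ileal markers it was highest in water mouse 2, and its relation to Nfe2l2 and Gclm was not tested. The 6 of 6 ileal region markers also had lower signal in voglibose mice, with a median difference of -0.61 and means of 9.01 to 11.84 in voglibose and 9.15 to 14.94 in water mice, and their part in the lower signal of the NRF2 genes was not tested. That count rested on single mice: without water mouse 2 the markers were 3 higher and 3 lower with a median of -0.017, and without voglibose mouse 2 they were also 3 and 3, with a median of -0.12. With voglibose mouse 2 and water mouse 4 left out, the ileal markers were lower in 6 of 6, with a median of -0.78. Leaving out these mice therefore does not even out the marker difference. In that refit all 10 genes were still lower in voglibose mice, from -0.0067 for Txnrd1 to -0.54 for Gpx2. The others were -0.04 for Nfe2l2, -0.097 for Hmox1, -0.15 for Gclc and -0.17 for Srxn1. Slc7a11 had -0.29, Nqo1 -0.40, Gclm -0.42 and Osgin1 -0.53. Of the 10 genes, 0 had an unadjusted p under 0.05 in that refit.

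**Figure D2:**
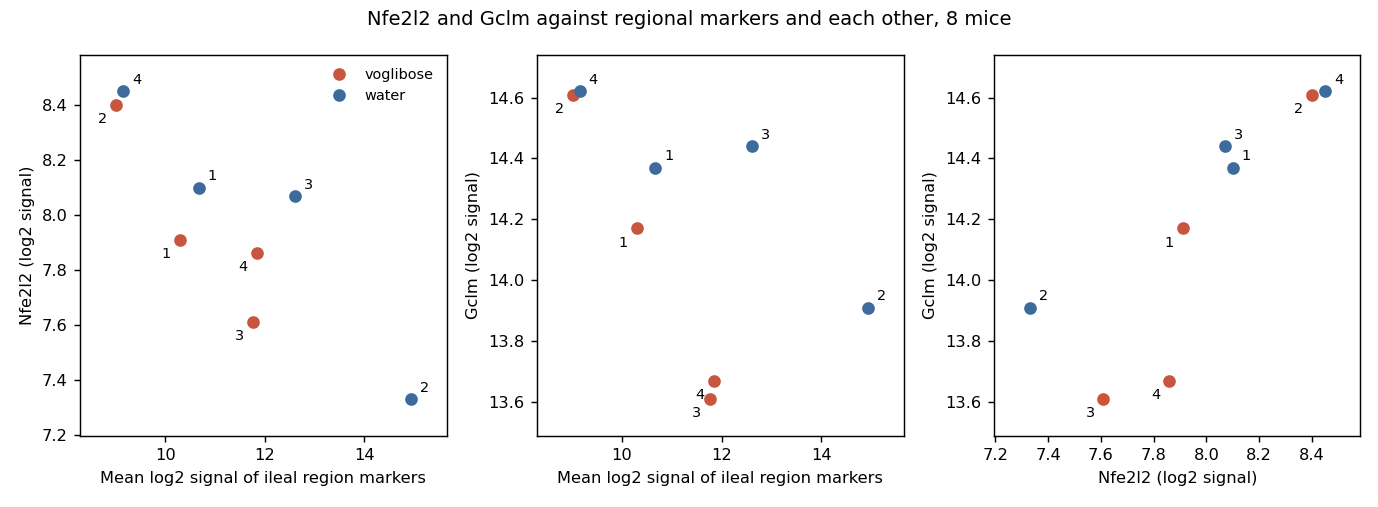
Nfe2l2 and Gclm (log2 signal, vertical axes) against the mean log2 signal of 6 ileal region markers (left and middle) and against each other (right) in 4 voglibose and 4 water mice, each point a mouse with its number. Voglibose mouse 2 and water mouse 4 have the lowest markers and the highest Nfe2l2 and Gclm, and water mouse 2 has the highest markers and the lowest Nfe2l2.

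The promoters of these genes are shown because NRF2 acts on them through a short element, whose core reads TGACNNNGC, with N for any base. RefSeq windows of 300 bases (250 before to 50 after the gene start, build GRCm38.p6) matched 8 of the 10 genes with 10 windows, Txnrd1 having 3, and Gclc and Hmox1 had none in the table. On either strand the core was in 4 of the 10 windows, those of Nfe2l2, Gclm, Srxn1 and 1 of Txnrd1, against 12.4% of all 32851 windows. A match of letters is not a bound site, and elements farther from the start lie outside these windows. The 4 matches are printed with 10 bases on each side, read 5′ to 3′ on the strand that spells the core, which is in capitals.
Nfe2l2 site: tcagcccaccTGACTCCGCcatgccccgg
Gclm site: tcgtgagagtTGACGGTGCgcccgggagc
Txnrd1 site: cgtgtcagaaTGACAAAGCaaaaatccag
Srxn1 site: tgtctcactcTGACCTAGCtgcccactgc

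The match in Nfe2l2 lies on the strand of the gene at chr2:75704895-75704903, 240 bases before its start, and those in Gclm (chr3:122245423-122245431, 134 bases before) and Txnrd1 (chr10:82859114-82859122, 92 bases before) lie on the opposite strand. That of Srxn1 (chr2:152105552-152105560) lies 28 bases after the start, also on the opposite strand. The related letters TGAGNNNGC, added after this search, were in the windows of Srxn1, Slc7a11 and Osgin1 and in 17.6% of all windows, and they do not overlap the first matches. Srxn1 held 2 such matches, 45 and 158 bases before the start, the farther one on the opposite strand. The nearer one reads the same 9 bases as the match in Osgin1, 99 bases before the start on the opposite strand, and the farther one reads other bases.
Srxn1 nearer site: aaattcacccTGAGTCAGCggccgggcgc
Srxn1 farther site: ccagagaggaTGAGTCGGCtctcagtaga
Osgin1 site: ttcataagcgTGAGTCAGCaggggcccct

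The whole windows of the pair with the highest correlation among the 45, Nfe2l2 (chr2:75704614-75704913, minus strand) and Gclm (chr3:122245307-122245606, plus strand), are given on the strand of the gene with the core match in capitals, which in Gclm therefore appears as its reverse complement.
Nfe2l2 promoter: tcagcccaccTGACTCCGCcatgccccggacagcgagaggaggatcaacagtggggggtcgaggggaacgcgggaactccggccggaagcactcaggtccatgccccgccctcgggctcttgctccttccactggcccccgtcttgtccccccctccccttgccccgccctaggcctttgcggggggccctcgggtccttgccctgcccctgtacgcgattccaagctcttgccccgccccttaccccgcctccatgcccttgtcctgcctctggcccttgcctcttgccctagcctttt
Gclm promoter: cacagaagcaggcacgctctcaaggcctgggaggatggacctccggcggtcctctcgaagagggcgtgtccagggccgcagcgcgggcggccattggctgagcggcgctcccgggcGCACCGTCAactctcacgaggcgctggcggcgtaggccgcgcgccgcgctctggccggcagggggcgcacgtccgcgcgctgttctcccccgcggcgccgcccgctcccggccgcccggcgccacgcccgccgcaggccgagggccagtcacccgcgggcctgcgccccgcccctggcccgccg

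Gpx2 had the largest difference of the 10 genes. It encodes the glutathione peroxidase of the gastrointestinal epithelium, a selenoprotein that reduces hydroperoxides and is known from the crypt base. Its signal was 13.44, 13.99, 13.90 and 14.76 in voglibose mice, against 14.56, 15.27, 13.90 and 14.72 in water mice. Voglibose mice 1 to 3 lay close to or below the lowest water mouse, and voglibose mouse 4 lay within the water range. The group means were 14.02 ± 0.55 in voglibose and 14.61 ± 0.56 in water mice (SD, n = 4), and the difference of -0.59 ± 0.31 (SE; 95% interval -1.28 to 0.10) corresponds to 0.664 of the water signal, with a limma unadjusted p of 0.0861 and adjusted p of 0.701. It stayed below 0 in every refit that left out 1 mouse, from -0.84 without voglibose mouse 4 (unadjusted p = 0.0169, limma) to -0.37 without water mouse 2. The 7 measured markers of crypt stem and progenitor cells had a median difference of -0.013, 3 higher and 4 lower (0.12 without voglibose mouse 1), and means of 8.43 to 8.85 in voglibose and 8.45 to 8.74 in water mice.

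Txnrd1, the cytosolic thioredoxin reductase and likewise a selenoprotein, had 13.28, 13.04, 12.98 and 13.02 in voglibose mice, against 12.99, 12.94, 13.37 and 13.30 in water mice. The 8 values spanned little, and the difference of -0.07 ± 0.15 (SE; 95% interval -0.41 to 0.27; limma, adjusted p = 0.943) was near 0, at 0.0033 without water mouse 3. Srxn1, sulfiredoxin, which restores peroxiredoxins that peroxide has overoxidised, had 11.72, 11.43, 11.71 and 11.51 in voglibose mice, against 11.80, 11.60, 12.06 and 11.29 in water mice. All voglibose values lay inside the water range. The difference was -0.10 ± 0.18 (SE; 95% interval -0.49 to 0.30; limma, adjusted p = 0.931), which became 0.029 with water mouse 3 left out and -0.23 with water mouse 4 left out.

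Nqo1, the quinone reductase most used as a marker of NRF2 activity, had 8.14, 9.51, 8.18 and 9.43 in voglibose mice, against 8.79, 8.67, 9.49 and 9.33 in water mice. The voglibose mice formed a pair below all water mice and a pair at the top of the water range, so the group spread (SD 0.76 in voglibose and 0.40 in water mice) exceeded the difference of -0.26 ± 0.34 (SE; 95% interval -0.997 to 0.487; limma, adjusted p = 0.894). That value depended on single mice, being -0.03 without voglibose mouse 1, -0.04 without voglibose mouse 3 and -0.49 without voglibose mouse 2. Without voglibose mouse 2 and water mouse 4 it was -0.40.

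Hmox1, the inducible heme oxygenase, which BACH1 represses and which macrophages use when they break down red cells, varied least of the 10 genes within the groups. It had 6.06, 6.07, 5.88 and 5.83 in voglibose mice, against 6.09, 6.09, 5.88 and 5.94 in water mice. The signals lay at the middle of the arrays, above the median in 5 of 8, and differed by -0.04 ± 0.13 (SE; 95% interval -0.34 to 0.26; limma, adjusted p = 0.968), with 0.0033 without voglibose mouse 4. At signals this low a change in Hmox1 could be understated, as for Slc7a11, and so could its spread. Of 10 measured macrophage markers 8 were lower in voglibose mice, with a median difference of -0.20 (-0.10 without water mouse 4) and means of 8.68 to 9.18 in voglibose and 8.77 to 9.27 in water mice, and their part in the level of Hmox1 was not tested.

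Osgin1, the oxidative stress induced growth inhibitor, had 6.64, 7.55, 7.24 and 7.06 in voglibose mice, against 7.11, 7.20, 8.22 and 7.33 in water mice. The water group owed its higher mean mostly to mouse 3. The difference was -0.34 ± 0.26 (SE; 95% interval -0.92 to 0.24; limma, adjusted p = 0.804), but -0.09 without water mouse 3 and -0.18 without voglibose mouse 1. It was -0.485 without voglibose mouse 2 and -0.53 without voglibose mouse 2 and water mouse 4.

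**Figure D3:**
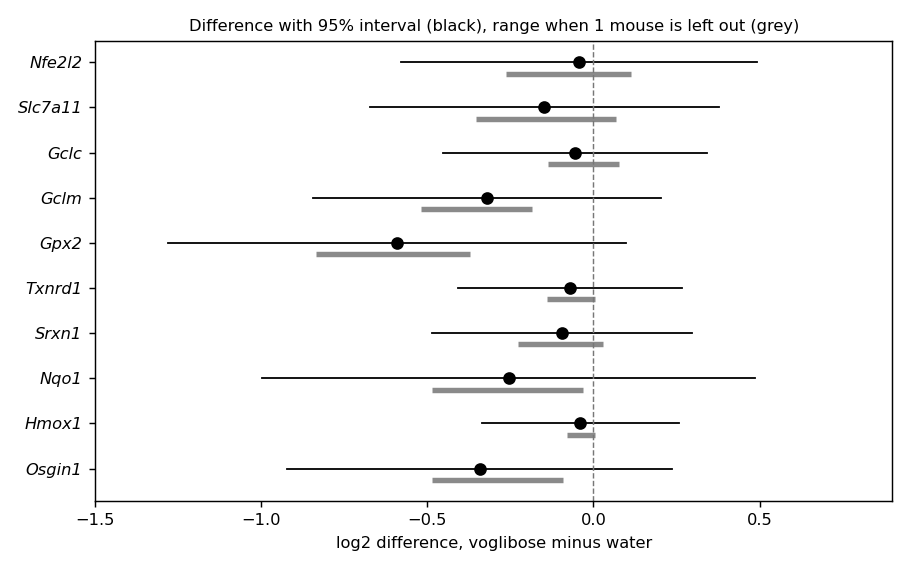
Log2 difference, voglibose minus water, of the 10 genes (dots) with the 95% interval of the limma fit on 4 mice a group (black lines) and the range of the difference when each of the 8 mice is left out in turn (grey bars). Every interval includes 0, and the grey bars of Gclm, Gpx2, Nqo1 and Osgin1 stay below 0.

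The genes around NRF2 were described from 9 lists of the pathway, which held 121 measured genes beside the 10. None passed over all probe sets (limma, adjusted p from 0.652 to 0.997). At an unadjusted p under 0.05 there were 2 higher and 10 lower genes, 9.92% of the 121, beside 7.52% of all probe sets. That share includes dim probe sets, and the count among brighter ones is given in the last section. The groups did not overlap in 10 of the 121 genes (1 higher, 9 lower), or 8.26%, beside 4.35% of all probe sets, and the 10 are named with their lists. The 4.35% likewise includes dim probe sets. The lists were chosen with earlier results of these data known, and they are described by counts and medians alone.

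The regulators of NRF2 had higher signal in voglibose mice in 11 of 15 measured genes, with a median difference of 0.14 (0.093 without voglibose mouse 2). Keap1, the inhibitor itself, had 7.84, 8.03, 7.45 and 6.91 in voglibose mice, against 7.03, 7.07, 7.46 and 8.07 in water mice, and differed by 0.15 ± 0.28 (SE), or -0.0075 without voglibose mouse 2. Bach1, the repressor that competes with NRF2, had 11.56, 11.02, 10.95 and 11.35 in voglibose mice, against 10.88, 10.82, 11.09 and 10.61 in water mice. Only water mouse 3 overlapped the voglibose mice, and the difference was 0.37 ± 0.18 (SE; unadjusted p = 0.0589; limma, adjusted p = 0.664), from 0.26 to 0.46 when 1 mouse was left out. Palb2, a partner of BRCA2 that also binds KEAP1, was the 1 gene of this list past an unadjusted p of 0.05, at 5.36, 5.55, 5.63 and 6.17 in voglibose mice, against 5.26, 5.19, 4.62 and 5.07 in water mice (0.64 ± 0.21; limma, adjusted p = 0.652). The small MAF gene Mafg, a partner of NRF2 on DNA, differed by -0.39 ± 0.20 (SE; limma, adjusted p = 0.697). Both Palb2 and Mafg were dim, with means in voglibose and water mice of 5.68 and 5.04 for Palb2. Those of Mafg were 5.37 and 5.76, and the lowest array median was 5.89.

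Further NRF2 targets divided nearly evenly, with 11 higher and 14 lower of 25 genes and a median of -0.03. This median had no stable sign, at 0.014 after a further quantile normalization, 0.055 without voglibose mouse 3, -0.18 without voglibose mouse 2 and -0.12 without voglibose mouse 2 and water mouse 4. The glutathione transferase Gsta3 had 6.22, 6.43, 6.34 and 6.51 in voglibose mice, all below the 6.85, 6.96, 7.05 and 6.66 of water mice, a difference of -0.51 ± 0.14 (SE; unadjusted p = 0.00467; limma, adjusted p = 0.652). The carboxylesterase Ces1g differed by -0.51 ± 0.23 (-0.31 without water mouse 2) and Nmrk1, a kinase of NAD synthesis, by 0.43 ± 0.18. These were the 3 genes of the list at an unadjusted p under 0.05. Of them Ces1g was dim, with means of 5.15 in voglibose and 5.66 in water mice.

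Enzymes that make, recycle or use glutathione were lower in 13 of 17 genes, by a median of -0.19 (-0.081 without voglibose mouse 1), and 0 had an unadjusted p under 0.05. Ggct, which acts in glutathione breakdown, the lipid peroxidase Gpx4 and the glutathione-cleaving Chac2 had the smallest p, with differences of -0.31 ± 0.20, -0.30 ± 0.21 and -0.33 ± 0.25 (SE). Single mice carried much of these, since Ggct was -0.15 without voglibose mouse 2 and -0.027 without water mouse 4 as well, and without water mouse 4 alone Gpx4 was -0.16 and Chac2 -0.14. Thioredoxins, peroxiredoxins and sestrins were lower in 11 of 12 genes, by a median of -0.12, but in 8 of 12 with a median of -0.015 without water mouse 4. Prdx3, the mitochondrial peroxiredoxin, had 10.81, 11.06, 11.63 and 11.57 in voglibose mice, against 11.99, 11.99, 11.67 and 11.79 in water mice (-0.59 ± 0.20; unadjusted p = 0.0123; limma, adjusted p = 0.652). Prdx1, the main cytosolic peroxiredoxin and also an NRF2 target, was among the brightest genes, with 16.72, 17.14, 17.14 and 17.17 in voglibose mice and 17.31, 17.38, 17.26 and 17.52 in water mice. The groups did not overlap in Prdx1 and Prdx3, the 2 such genes of this list, and Prdx1 differed by -0.33 ± 0.15 (SE; unadjusted p = 0.0532; limma, adjusted p = 0.661). Txnrd3, a thioredoxin reductase best known from testis, differed by -0.29 ± 0.16, at dim means of 4.84 in voglibose and 5.13 in water mice.

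Enzymes that supply NADPH, the reductant of both systems, were lower in 8 of 9 genes, by a median of -0.24 (-0.15 without voglibose mouse 3). Pgls, of the oxidative branch of the pentose phosphate pathway, had 8.08, 8.05, 7.98 and 7.79 in voglibose mice, against 8.12, 8.26, 8.49 and 8.88 in water mice, a difference of -0.46 ± 0.18 (SE; unadjusted p = 0.0248; limma, adjusted p = 0.658). Taldo1, transaldolase of the same pathway, had 11.39, 11.00, 11.37 and 11.45 in voglibose mice, against 11.56, 11.69, 11.78 and 11.64 in water mice (-0.37 ± 0.15; limma, adjusted p = 0.658). The groups did not overlap in either gene. The malic enzyme Me1 differed by -0.70 ± 0.34 (SE; unadjusted p = 0.0637; limma, adjusted p = 0.671), with voglibose mouse 1 lowest at 6.65 and water mouse 2 highest at 9.01, and was -0.42 without water mouse 2.

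Of 5 genes that remove superoxide and peroxide, 3 were lower and 2 higher, with a median of -0.13, or 0.03 without water mouse 4. Ccs, the copper chaperone of superoxide dismutase, was lower in all 4 voglibose mice than in any water mouse (-0.38 ± 0.15; limma, adjusted p = 0.658), while Sod1 and Sod3, the cytosolic and extracellular dismutases, differed by -0.13 ± 0.13 and 0.19 ± 0.19, Sod3 by 0.062 without voglibose mouse 3. Genes of heme breakdown and synthesis were 6 higher and 6 lower, with a median of 0.016, from -0.035 without water mouse 2 to 0.11 without water mouse 4. Blvra, a biliverdin reductase, which acts on the product of Hmox1, had 8.42, 8.58, 8.72 and 8.95 in voglibose mice, against 9.07, 8.98, 9.25 and 9.69 in water mice. Its groups did not overlap (-0.58 ± 0.19; unadjusted p = 0.00991; limma, adjusted p = 0.652), whereas Abcg2, a transporter of porphyrins, and Ppox, of heme synthesis, differed by -0.41 ± 0.27 and 0.34 ± 0.28. Abcg2 was -0.21 without voglibose mouse 1, and Ppox was 0.098 without water mouse 2.

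Targets of ATF4, the factor of the amino acid response that also acts on Slc7a11, were lower in 12 of 18 genes, by a median of -0.15 (-0.087 without water mouse 1 and -0.093 without voglibose mouse 1), and 0 had an unadjusted p under 0.05. Asns, asparagine synthetase, Shmt2, a mitochondrial serine enzyme, and the lipoprotein receptor Vldlr differed by -0.47 ± 0.22, -0.28 ± 0.16 and 0.31 ± 0.21 (SE). Without water mouse 4 Vldlr was 0.12 and Shmt2 -0.18. Selenoproteins and their synthesis, the class of Gpx2 and Txnrd1, were lower in 10 of 16 genes, by a median of -0.081 (-0.050 without voglibose mouse 1), or 8 of 16 with -0.015 after a further quantile normalization and 10 of 16 with -0.14 without voglibose mouse 2 and water mouse 4. Selenok and Selenof, selenoproteins of the endoplasmic reticulum, and the nuclear Selenoh differed by -0.43 ± 0.17, -0.45 ± 0.18 and -0.50 ± 0.20 (limma, adjusted p = 0.658 for each), and the groups did not overlap in Selenok and Selenof.

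**Figure D4:**
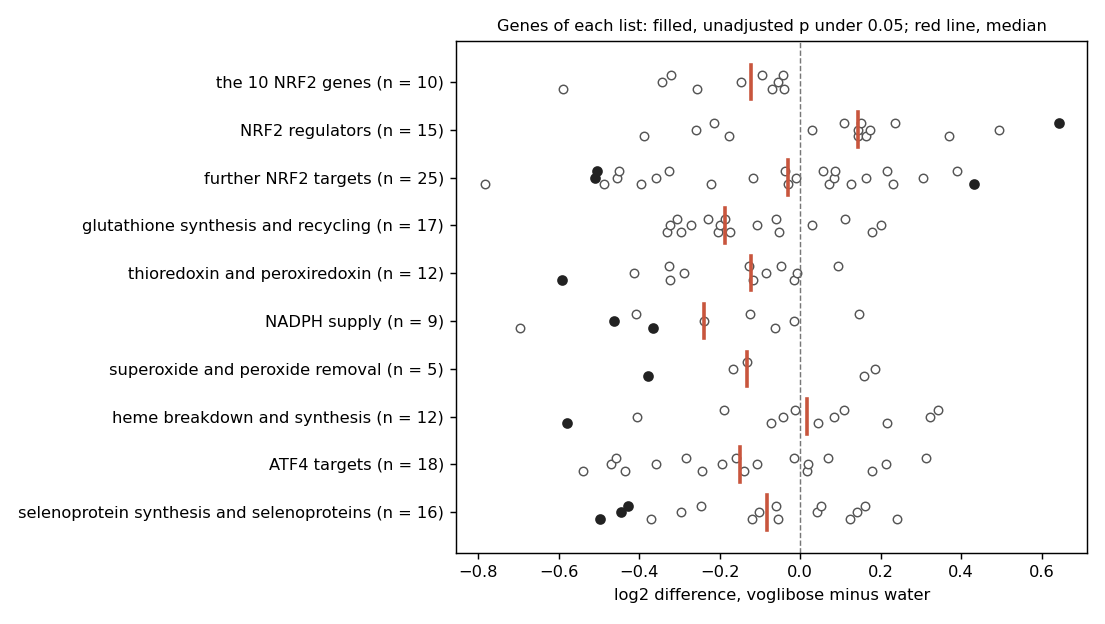
Log2 differences, voglibose minus water, of the 10 NRF2 genes and of 9 lists of related genes, each point a gene and some genes in more than 1 list. Filled points have an unadjusted p under 0.05 (limma), 0 of the 10 NRF2 genes among them, and red lines are medians, from -0.24 for NADPH supply to 0.14 for the regulators.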

How the data were processed

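The authors deposited log2 signals per probe set, 1 column per mouse, for 8 Affymetrix arrays made from 250 ng of RNA each. RMA and the Transcriptome Analysis Console were used, per the submitters' processing notes, which give no versions. The log2 scale was read from the values, 2.09 to 19.55. Normalization between arrays hides a change in total RNA, and dim probe sets understate differences. The labels give 2 groups of 4 mice and no batch. The number of arrays limits the precision, with a median SE of 0.18.

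All 22206 probe sets were fitted with limma 3.58.1 in R 4.3.3 (lmFit, eBayes, 2-sided, Benjamini-Hochberg, threshold 0.05) without a filter. Differences are voglibose minus water, with moderated SE and 95% intervals. The fit was tested on simulated data: at an adjusted p of 0.05 it recovered 6.6% of genes changed 1.5-fold, 46.6% at 2-fold and 82.2% at 3-fold (22206 probe sets, 10 runs, 50 genes per size, all from the brighter part of the array). Relations over mice used exact permutation tests in Python 3.11.15. Of the probe sets, 19572 had 1 gene symbol, matched by gene identifier to RefSeq names, and 2634 had none.

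The members and lists were chosen with earlier results of these data known. The rule for named genes takes the 10 members, Keap1, Bach1, the 3 genes with the smallest p in each list and the brightest marker of each cell type. Same-numbered mice had correlations of their deviations of 0.015, -0.324, 0.014 and -0.184. These gave no sign of pairing by number but cannot exclude it, and the labels give no pairing. Alternatives were a further quantile normalization, no variance moderation, trend and robust fitting, brighter probe sets alone, a replicate block and leaving out each mouse; leaving out water mouse 4 with voglibose mouse 2, and mice left out of the list counts, were added after seeing the data.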

Additional observations from a re-analysis of the deposited data

Results flagged for a closer look

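A check of 49 genes, in 98 groups of 4 mice, did not cover all the genes named. In 6 groups 1 value lay too far from the nearest mouse for the group's range (above Dixon's 95% critical value for 4 samples). Chance gives about 1 in 20 groups. The pancreatic genes below lie outside the rule for named genes and are printed for their values in voglibose mouse 2. The count of 6 can therefore not be read against that rate. In voglibose mouse 2 the pancreatic genes Amy2a5 (14.09, other voglibose mice 4.82 to 5.32), Cpa1 (12.01, others 5.01 to 5.37) and Prss2 (10.77, others 4.62 to 4.90) were far above the rest of the group. Prdx1, the peroxiredoxin, was lowest in voglibose mouse 1 (16.72, other voglibose mice 17.14 to 17.17). Me1, malic enzyme, was highest in water mouse 2 (9.01, other water mice 7.83 to 8.02), and Vldlr was lowest in water mouse 4 (6.56, other water mice 7.31 to 7.39). None of the 10 NRF2 genes was among them. The markers Zg16 and Slc4a1 were outside the check and also had a water mouse apart. Zg16 was 17.85 in water mouse 4 (other water mice 18.23 to 18.28), and Slc4a1 was 6.54 in water mouse 3 (others 7.14 to 7.26).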

How the results depend on the processing

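Under all 14 alternative fits 0 of the 10 genes and 0 probe sets passed an adjusted p of 0.05, and the smallest adjusted p of any of the 10 genes was 0.602. Between 8 and 10 of the genes were lower in voglibose mice when 1 mouse was left out, and 9 after a further quantile normalization. Nfe2l2 turned to 0.0336 after that normalization, and with 1 mouse left out it ran from -0.26 to 0.11, Gclc from -0.14 to 0.078, Hmox1 from -0.08 to 0.0033, Txnrd1 from -0.14 to 0.0033, Srxn1 from -0.23 to 0.029, Slc7a11 from -0.35 to 0.068 and Keap1 from -0.0075 to 0.37. The cause was not tested. At an unadjusted p under 0.05 there were 0 to 1 of the 10 genes with 1 mouse left out, Gclm without voglibose mouse 2 and Gpx2 without voglibose mouse 4 or water mouse 3. The probe sets at this threshold numbered 1671 of 22206, against 1019 of the 11333 brighter probe sets. With 1 mouse left out they numbered 969 to 1906, the fewest without voglibose mouse 1. With the replicate block the count was 1529 and 0 of the 10 genes passed, with Gpx2 at an unadjusted p of 0.0602 (limma), and the block changed no call at an adjusted p of 0.05. At the unadjusted threshold it moved 4 of the 121 pathway genes across, Pgls (0.0536), Taldo1 (0.0506) and Ccs (0.0613) no longer under it and Me1 (0.00662) now under it, for 10 genes against 12. Averaging of probe sets was not run, since each of the 10 genes has 1. Slc7a11 is not among the brighter probe sets.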
